A study of Mus musculus with 2 samples.

Results

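The mitochondrial genome of the mouse is a small circle, written in the annotation as chromosome M, and its genes were measured here in the cerebellum, in 2 captured pieces of the granule layer. The members were all gene rows that lie on chromosome M in mouse GENCODE, 37 of the 43346 rows with Ensembl gene IDs. They comprise 13 mRNAs, 2 rRNAs and 22 tRNAs. Each area was laser-captured from tissue labelled as adult, male and wild type, of strain B6NCrl at 8 months of age, and gave 1 library. Each covered 18000 square microns, with 50 cells stated as the starting material, and the pair is numbered as biological replicates 1 and 2 of 1 group. Both carry the same donor label, so the number of animals behind them is not known, the spread between them may be technical, and no contrast between conditions exists. The labels name total RNA and the Smart-seq protocol, which primes on poly(A) tails and amplifies full-length copies.

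All 13 mitochondrial mRNAs encode subunits of the respiratory chain or of the ATP synthase, which nuclear genes complete. Both strands of the circle are transcribed into long precursors, and the tRNAs, which sit between the other genes, are cut out so that the mRNAs and rRNAs are released. The mRNAs and rRNAs then receive short A tails, and the rRNAs form the core of the mitochondrial ribosome that translates all 13 mRNAs. Granule neurons spend energy on synaptic input and firing, and their mitochondria supply much of it.

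The captured tissue carried the defining markers of its label. All 8 granule neuron markers were detected in both libraries, with Gabra6, a GABA-A receptor subunit of granule cells, at 925 and 1086 TPM. Their sum was 2773 and 3034 TPM, and 7 of the 8 were higher in replicate 2. TPM is the number of transcripts per 1000000 transcripts, and it corrects for gene length. Of other cells, the 5 red blood cell markers summed to 5040 TPM in replicate 1 and 390.1 in replicate 2, and all 5 were lower in replicate 2. All 5 Golgi cell markers (46.8 and 34.3 TPM in sum), all 5 endothelial markers (218 and 172), 4 of 5 microglial markers (84.1 and 63.9) and 5 of 6 astrocyte and Bergmann glia markers (607 and 568) were lower there too. All 6 oligodendrocyte markers (551 and 680) and 4 of 5 mural cell markers (40.8 and 63.0) were higher there. The Purkinje cell markers (218 and 241) were split, with 3 of 6 higher and 3 lower there. Of these, Pcp2 was at 91.1 and 158 TPM and Pcp4 at 113 and 68.85. Over the 14050 genes detected in at least 1 library, 51.3% were lower in replicate 2. No marker had a mean TPM of 0, but the mural cell markers Acta2 and Tagln had 0 counts in replicate 1. The mural cell marker Vtn was at 6.80 and 20.9 TPM. Gene rows held 19962271 and 19261911 expected counts, which are estimated read counts.

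Of the sequences, 3 kinds are shown because they bear on how the values can be read. The first are tRNAs, of 59 to 75 bases, of which the shortest and the longest are the serine tRNA mt-Ts2 (chrM:11613-11671, plus strand) and the leucine tRNA mt-Tl1 (chrM:2676-2750, plus strand). All sequences are from GENCODE M21 on GRCm38, written 5′ to 3′ as transcribed.
mt-Ts2: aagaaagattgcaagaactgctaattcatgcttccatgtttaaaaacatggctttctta
mt-Tl1: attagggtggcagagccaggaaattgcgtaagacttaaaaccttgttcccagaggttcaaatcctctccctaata

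In the deposited tables the effective length of a gene, the length used for normalization, was 99 bases below its length (the median over genes). All 22 tRNAs had an effective length of 0, as did 2218 of the 43346 gene rows, and they held 0 counts in both libraries. Gene rows under 100 bases together held 0 counts. The zeros of the tRNAs are therefore listed values and not a measured absence, and no upper limit was drawn from them. The labels also give a size range above 200 for the molecules. Of the 22 tRNAs, 8 lie on the minus strand.

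The second kind are nuclear copies. A stretch of chromosome 1 from 24611535 to 24616197, on the minus strand, holds 7 annotated pseudogenes in a row that match the mitochondrial genes from mt-Co1 to mt-Nd4. Against Gm28661, Gm10925, Gm28437 and Gm10222 the genes mt-Co2, mt-Atp6, mt-Co3 and mt-Nd4l had 0 mismatches over 681, 678, 783 and 294 bases. Gm28439 matched the first 876 bases of mt-Nd4, also with 0 mismatches. Over such a run a read from the mitochondrial RNA and a read from the copy have the same letters. The copy of mt-Nd3, Gm28438, differed at 1 base, T3C, counted from 1 at the first base of mt-Nd3 (position 9461 of chromosome M). The start of mt-Nd3 (chrM:9459-9518, plus strand) and of its copy (chr1:24613060-24613119, minus strand) are given with that base in capitals.
mt-Nd3: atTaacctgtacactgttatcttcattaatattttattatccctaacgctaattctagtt
Gm28438: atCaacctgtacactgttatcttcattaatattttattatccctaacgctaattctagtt

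The copy of mt-Co1, Gm29216, covers the gene from base 1054 to its end. It differed at 6 bases near its own start (T1056A, C1057T, A1059G, A1060G, C1062A and A1066T, counted along mt-Co1), and its last 479 bases were identical. The beginning of that match is shown for mt-Co1 (chrM:6381-6440, plus strand) and for Gm29216 (chr1:24616138-24616197, minus strand), with the differing bases in capitals.
mt-Co1: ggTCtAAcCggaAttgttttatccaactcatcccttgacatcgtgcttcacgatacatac
Gm29216: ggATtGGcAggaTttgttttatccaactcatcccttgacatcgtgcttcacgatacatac

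The third kind are gene ends that rest on the A tail or on a neighbour. Of the 13 mRNAs, 3 end in an unfinished stop codon, a lone T that the A tail completes. They are mt-Co3 (chrM:9331-9390), mt-Nd4 (chrM:11505-11544) and mt-Cytb (chrM:15249-15288), all on the plus strand and shown by their last bases with that T in capitals, taken from the transcripts before any tail.
mt-Co3: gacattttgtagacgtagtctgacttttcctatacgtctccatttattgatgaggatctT
mt-Nd4: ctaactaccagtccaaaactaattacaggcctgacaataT
mt-Cytb: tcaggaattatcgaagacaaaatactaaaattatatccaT

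The genes mt-Atp8 and mt-Atp6 share 43 bases (chrM:7927-7969, plus strand), shown with the start codon of mt-Atp6 and the stop codon of mt-Atp8 in capitals. The genes mt-Nd4l and mt-Nd4 share 7 bases. Each of these pairs is carried on 1 mRNA.
overlap: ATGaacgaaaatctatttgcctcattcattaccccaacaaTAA

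All 15 mRNAs and rRNAs were detected in both libraries, with a minimum of 1 for TPM and of 5 for the expected count. Chromosome M genes held 6.40% of gene counts in replicate 1 (95% exact binomial interval 6.39 to 6.41) and 5.22% in replicate 2 (5.21 to 5.23). These intervals cover counting error only, since amplified reads are not independent molecules. The mRNAs took 3.83% and 3.63% of gene counts and the rRNAs 2.57% and 1.58%. The areas thus lay further apart in the rRNA share than in the mRNA share. In captured areas, fewer cells of a type and less RNA per cell cannot be told apart. Among the 20 genes with the highest mean TPM, 8 were mitochondrial and 4 were chromosome 1 copies.

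The nuclear copies held a large share of the counts. By blastn, 17 annotated genes outside chromosome M matched a mitochondrial gene at 90% identity or more over at least 100 bases, and 15 of them were in the tables. They held 502492 and 466791 counts, or 2.52% and 2.42% of gene counts. Set against the counts on chromosome M, that was 39.3% and 46.5%. Nearly all of it lay on 6 of the 7 pseudogenes of the chromosome 1 stretch. Of 3 copies on chromosome 2, Gm13340 had 42.3 and 33.5 counts, Gm13341 had 24.3 and 29.2, and Gm13339 had 1.60 and 0, and 5 copies had 0 in both libraries.

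Cytochrome c oxidase, or complex IV, passes electrons to oxygen, and its catalytic core is formed by mt-Co1, mt-Co2 and mt-Co3. The gene mt-Co3 had 46149 and 43134 expected counts, while its copy Gm28437 had 215719 and 192412. The deposited posterior standard deviation, a measure of the uncertainty in assigning reads, was 62503 and 53866 for mt-Co3, above its own count in both libraries. The same standard deviation was given to Gm28437. The copy thus held 82.4% and 81.7% of the counts of the pair, and the deposited interval on the TPM of mt-Co3 ran from 2499 to 16683 in replicate 1 and from 2574 to 15057 in replicate 2.

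The gene mt-Co2 had 46576 and 45406 counts against 86877 and 86538 on Gm28661, with a posterior standard deviation of 17605 and 21499. The copies held 65.1% and 65.6% of the summed counts. The gene mt-Co1 had 178614 and 150454 counts and Gm29216 had 81004 and 78892. Its posterior standard deviation was 281 and 247, or 0.157% and 0.164% of the count, although the copies held 31.2% and 34.4% of the sum. By the posterior standard deviation the split of reads was therefore loose for mt-Co2 and mt-Co3 and narrow for mt-Co1. That measure lies within the deposited estimate and does not show that a split is right. Gm29216 was at 12029 and 12051 TPM, above mt-Co1 as deposited.

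For the ATP synthase, or complex V, mt-Atp6 forms part of the proton channel and mt-Atp8 is a short membrane subunit beside it. The gene mt-Atp6 had 98202 and 96636 counts, close to the 97422 and 90105 on Gm10925, with a posterior standard deviation of 28945 and 22534. The gene mt-Atp8 had 23131 and 22560 counts and a posterior standard deviation of 0 in both libraries. No copy of mt-Atp8 met the match rule, but stretches without an annotated transcript were not searched. The posterior standard deviation of 0 therefore does not show that no copy exists.

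Complex I takes electrons from NADH, and 7 of its core membrane subunits are mitochondrial. Among these, mt-Nd4l had 472 and 346 counts against 3739 and 3093 on Gm10222, so the copy held 88.8% and 89.9% of the sum. The gene mt-Nd3 had 6606 and 5377 counts against 17659 and 15687 on Gm28438, and the copy held 72.8% and 74.5%. The copy of mt-Nd4, Gm28439, had 2.79 and 2.87 counts next to 73897 and 67474 on mt-Nd4. Gm28439 and Gm28437 both matched with 0 mismatches but held very different shares. They also differed in coverage, with 876 of the 1378 bases of mt-Nd4 and 783 of the 784 bases of mt-Co3. The part of coverage in the shares was not tested. Both rRNAs and mt-Nd1, mt-Nd5, mt-Nd6, mt-Cytb and mt-Atp8, 7 of the 15 genes, had a posterior standard deviation of 0 in both libraries.

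**Figure D1:**
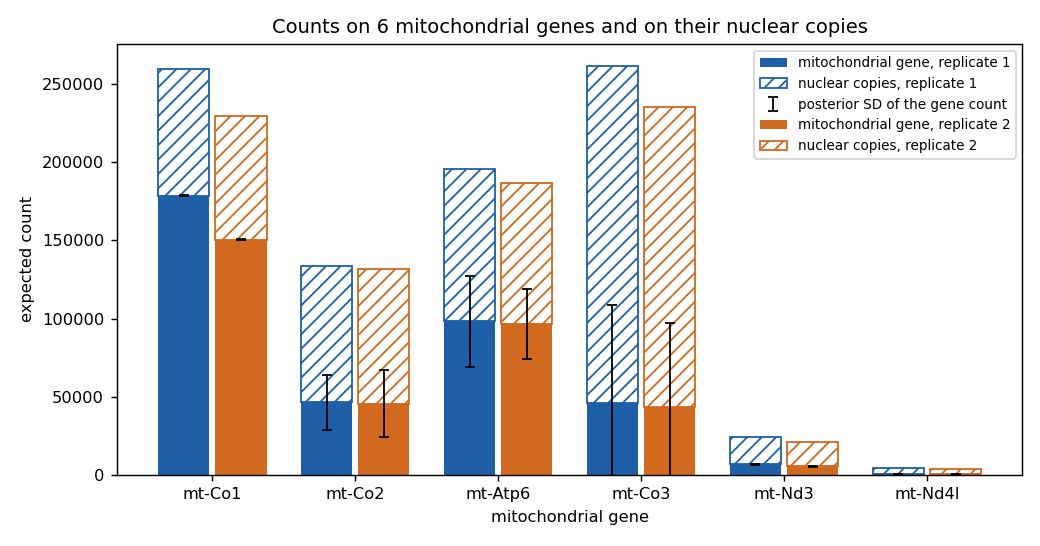
Expected counts (y axis) for 6 mitochondrial genes (filled bars) with the counts of their nuclear copies stacked on top (hatched), in replicate 1 (blue) and replicate 2 (orange); black bars are the posterior standard deviation of the mitochondrial gene's count, and bars that would run below 0 are cut there. The copies hold more counts than the gene for mt-Co2, mt-Co3, mt-Nd3 and mt-Nd4l in both areas.

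Because of these splits, each level is given as deposited and, where copies held counts, also from the counts of the gene and its copies together, divided by the effective length of the mitochondrial gene. This summed level also counts any RNA made from the copies, and it was added after the values had been seen. Positions are on chromosome M of GRCm38, plus strand unless stated.

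In complex IV, mt-Co1 (5328 to 6872) was deposited at 7209 and 6246 TPM and had a summed level of 10480 and 9523. The gene mt-Co2 (7013 to 7696) was deposited at 4646 and 4659 TPM, with a summed level of 13316 and 13542. The gene mt-Co3 (8607 to 9390) was deposited at 3932 and 3780 TPM and had a summed level of 22310 and 20642, the highest of all 15 genes. By deposited TPM the 3 core subunits ran mt-Co1, mt-Co2, mt-Co3, and by summed level mt-Co3, mt-Co2, mt-Co1. In neither order did the libraries of neighbouring genes overlap, but that leaves out the uncertainty in assigning reads. The deposited TPM intervals of mt-Co2, 4172 to 9483 and 4327 to 10221, overlapped those of mt-Co3 given above. The intervals of both genes took in that of mt-Co1, 6947 to 7027 in replicate 1 and 6011 to 6085 in replicate 2. The order also depended on which deposited estimate was used. The posterior mean TPM, a second deposited estimate, was 8065 and 7315 for mt-Co3, 6988 and 6048 for mt-Co1, and 5989 and 6366 for mt-Co2, so that mt-Co3 was highest of the 3 with no copies added. For mt-Co1 the intervals held this second estimate and lay below the deposited TPM in both libraries.

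In complex V, mt-Atp8 (7766 to 7969) was at 12856 and 12898 TPM. The gene mt-Atp6 (7927 to 8607) was deposited at 9847 and 9967 TPM, and had a summed level of 19616 and 19261. The ratio of mt-Atp8 to mt-Atp6, which share an mRNA, was 1.30 ± 0.00820 (SD, n = 2) from the deposited TPM. From the summed levels it was 0.663 ± 0.0101. Both SDs are the spread between libraries and leave out the uncertainty in assigning reads. The deposited TPM interval of mt-Atp6 ran from 8256 to 16006 in replicate 1 and from 8475 to 14931 in replicate 2, which takes in the TPM of mt-Atp8. With 204 bases, mt-Atp8 has an effective length of 105, so its TPM leans more on that correction than those of the longer genes.

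In complex III, mt-Cytb (14145 to 15288), which encodes cytochrome b, was at 6485 and 6173 TPM, a mean of 6329 ± 221 (SD, n = 2). No copy of it held counts. It was the highest mRNA among those without a counted copy, apart from mt-Atp8.

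The complex I mRNAs spanned the widest range. The gene mt-Nd1 (2751 to 3707) was highest at 6050 and 5821 TPM. The gene mt-Nd4 (10167 to 11544) was at 3372 and 3167 TPM and mt-Nd2 (3914 to 4951) at 2820 and 2656. The minus-strand gene mt-Nd6 (13552 to 14070) was at 1575 and 1419 TPM, and mt-Nd5 (11742 to 13565), which it overlaps by 14 bases, was at 986 and 923. They lie on opposite strands, and the sources used here do not say whether counting used strand, so reads of mt-Nd6 and reads of RNA antisense to it cannot be told apart.

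In complex I, the short genes mt-Nd3 and mt-Nd4l rose most when the copies were added. The gene mt-Nd3 (9459 to 9806) was deposited at 1548 and 1296 TPM and had a summed level of 5687 and 5078. The gene mt-Nd4l (9877 to 10173) was deposited at 139 and 105 TPM, the lowest of all 15 genes, with a summed level of 1241 and 1043. Its partner on the same mRNA, mt-Nd4, was 24.3 and 30.2 times as high by deposited TPM and 2.72 and 3.04 times as high by summed level. From the highest to the lowest mRNA the deposited TPM spanned 92.5-fold in replicate 1 and 123-fold in replicate 2. The summed levels spanned 22.6-fold and 22.4-fold, from mt-Co3 to mt-Nd5.

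The rRNAs are mt-Rnr1 (70 to 1024), of the small ribosomal subunit, and mt-Rnr2 (1094 to 2675), of the large one. The large rRNA was at 15470 TPM in replicate 1 and 9391 in replicate 2, and the small rRNA at 8185 and 5092. Both were high in replicate 1 and low in replicate 2, and the ratio of the large to the small one was 1.89 and 1.84. In order of mean deposited TPM the 15 genes ran mt-Atp8, mt-Rnr2, mt-Atp6, mt-Co1, mt-Rnr1, mt-Cytb, mt-Nd1, mt-Co2, mt-Co3, mt-Nd4, mt-Nd2, mt-Nd6, mt-Nd3, mt-Nd5 and mt-Nd4l. Neighbours whose libraries overlapped were mt-Atp8 with mt-Rnr2, mt-Rnr2 with mt-Atp6, mt-Co1 with mt-Rnr1, mt-Rnr1 with mt-Cytb, and mt-Nd6 with mt-Nd3. That compares library values alone and leaves out the uncertainty in assigning reads, so the places of mt-Co2, mt-Co3 and mt-Atp6 are less sure. For mt-Nd4l the deposited intervals lay below those of mt-Nd5 in both libraries, but its place changed with the copies added. In the summed order mt-Co3, mt-Atp6 and mt-Co2 came first, and mt-Nd5 last.

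**Figure D2:**
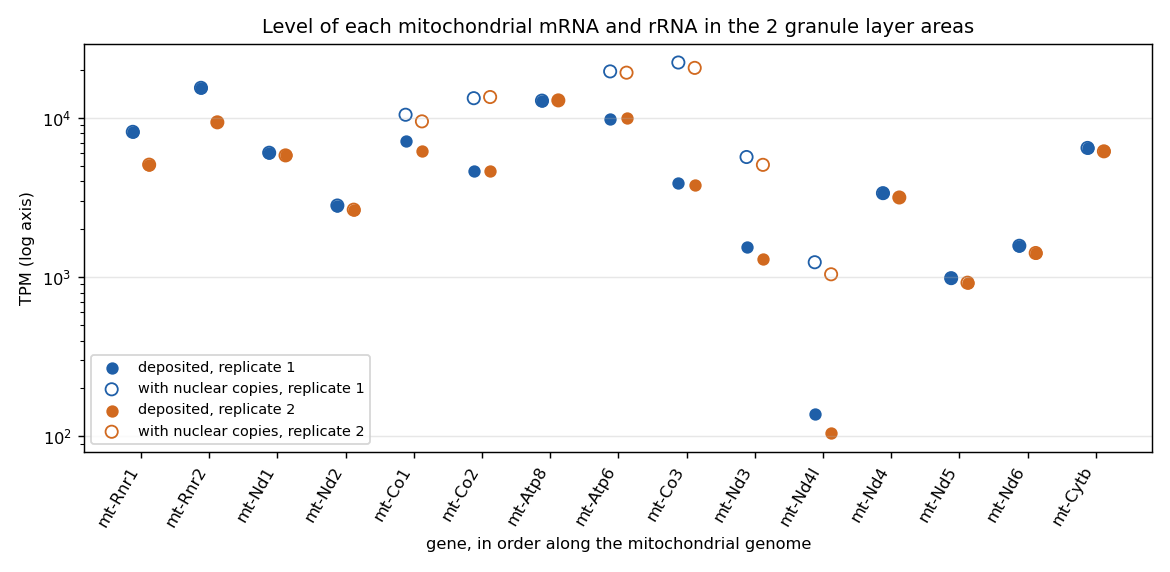
TPM on a log axis (y) for the 13 mRNAs and 2 rRNAs in their order along the mitochondrial genome (x); filled points are deposited values, open points are levels with nuclear copies added, blue is replicate 1 and orange replicate 2. From mt-Co1 to mt-Nd4l, all genes except mt-Atp8 rise when copies are added, most for mt-Nd4l, and the areas are widest apart in the rRNAs (15470 and 9391 TPM for mt-Rnr2).

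The genes also differed in base composition. The share of A was 37.8% in mt-Rnr1 and 38.2% in mt-Rnr2, and among the mRNAs it ran from 22.2% in mt-Nd6 to 40.7% in mt-Atp8. The longest run of A inside a gene was 7 bases in mt-Rnr2, 5 in mt-Rnr1, 8 in mt-Nd2 and 3 in mt-Nd6. Its part in the levels was not tested. Genes on the minus strand, of which only mt-Nd6 held counts, took 0.887% and 0.988% of chromosome M counts.

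Between the areas, both rRNAs were lower in replicate 2, by about the same amount, and the mRNAs lay closer together. With 1 library per area this difference has no replicate, and no p-value is given. The log2 ratio of TPM + 1, replicate 2 over replicate 1, was -0.72 for mt-Rnr2 and -0.68 for mt-Rnr1. A gene was called where this ratio was beyond 0.32 in size, and 2 of 2 rRNAs were called lower in replicate 2. Of 1312 abundant genes, those whose mean TPM was 100 or more, 1.45% were called lower in replicate 2, and of 14050 genes detected in at least 1 library 18.2% were. In the list of 1312 genes ordered by this ratio, only the globin genes Hbb-bt, Hba-a2, Hba-a1 and Hbb-bs and the enkephalin gene Penk lay lower than the 2 rRNAs, which had ranks 6 and 7. Penk, named after its value was seen, was at 137 and 71.1 TPM.

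The mRNAs had a median log2 ratio of -0.09, against 0.04 over the 1312 abundant genes and -0.01 over the 14050 detected genes. Of the 13, 10 were lower in replicate 2, where 39.7% of the abundant genes and 51.3% of the detected genes were. From summed levels 11 of 13 were. The 3 deposited exceptions, mt-Co2, mt-Atp8 and mt-Atp6, had ratios of 0.00, 0.00 and 0.02. For mt-Atp6 the ratio changed sign with the copies added, to -0.03. Called in either direction was 1 of 13, where the share was 4.5% of abundant genes and 33.7% of detected genes. That gene was mt-Nd4l at -0.40, whose deposited TPM intervals of 75.3 to 306 and 43.1 to 216 overlapped, and whose summed ratio of -0.25 was not called. None of the 15 genes was past 2-fold, where 0.381% of the abundant genes and 4.29% of the detected genes were.

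The summed TPM of the mRNAs was 61465 and 59111, and that of the rRNAs 23655 and 14483. The rRNAs therefore stood at 0.385 of the mRNAs in replicate 1 and 0.245 in replicate 2, or 0.222 and 0.142 with the copies added. Among other noncoding RNAs, the nuclear Malat1 was at 88719 and 83553 TPM and the small nuclear RNA Rn7sk at 227 and 218. Genes annotated as nuclear rRNA, at 90.2 and 171 TPM in all, lay higher in replicate 2. By the sums given with the markers, those of red blood cells, Golgi cells, endothelium, microglia and astrocytes were lower in replicate 2 too. Those of granule neurons, oligodendrocytes, mural cells and Purkinje cells were higher there. The part of any of these cells in the rRNA difference was not tested.

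**Figure D3:**
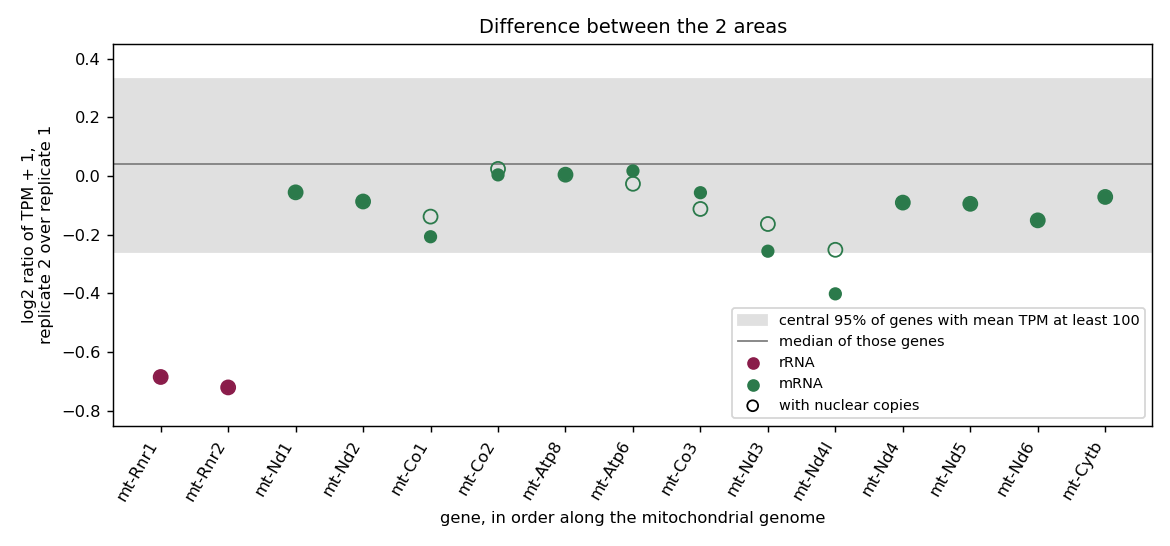
Log2 ratio of TPM + 1, replicate 2 over replicate 1 (y), for each mRNA (green) and rRNA (dark red) in genome order (x); filled points are deposited, open points have nuclear copies added, and the grey band is the central 95% of the 1312 abundant genes (-0.26 to 0.33). Both rRNAs lie well below the band, and of the mRNAs mt-Nd4l lies below it only as deposited.

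Nuclear genes supply most subunits of the same complexes, and the median mitochondrial mRNA stood above the median nuclear subunit. The median of the 13 was 3932 and 3780 TPM, against 833 and 885 TPM for 73 nuclear subunits of complexes I, III, IV and V, a fold of 4.49 ± 0.318 (SD, n = 2). With the copies added the fold was 6.92 ± 0.486. The SDs of these folds and those below are the spread between libraries and leave out the uncertainty in assigning reads. As deposited the median gene was mt-Co3, with TPM intervals of 2499 to 16683 and 2574 to 15057. By posterior mean TPM the median gene was mt-Nd1, at 5863 and 5637, and no fold was computed from that estimate. All 73 nuclear subunits were detected in both libraries, and all had a mean TPM above 100. None was called between the areas, beside 4.5% of abundant genes and 33.7% of detected genes called either way. Complex II, which has no mitochondrial subunit, had a median of 157 TPM over its 4 genes, with Sdhb at 317 ± 16.4, Sdhd at 189 ± 0.127, Sdha at 125 ± 10.3 and Sdhc at 103 ± 11.9.

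The gap differed between complexes. In complex I the 7 mitochondrial mRNAs had a median of 1575 and 1419 TPM and the 36 nuclear subunits 612 and 611, a fold of 2.45 ± 0.178 that was 4.47 ± 0.185 with copies. The highest nuclear subunits were Ndufc1 at 1517 ± 56.4 TPM, Ndufa1 at 1389 ± 14.9 and Ndufa5 at 1382 ± 75.7, all accessory subunits. The lowest was Ndufv1, which binds NADH, at 114 ± 0.134. The list held 37 genes, and 1 of them, Ndufb1, was not matched by name. By deposited TPM 3 of the 7 mitochondrial mRNAs were above Ndufc1, and with copies 4 were.

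In complex III mt-Cytb was 5.14 ± 0.161 times the median of 9 nuclear subunits, led by Uqcr11 at 1390 ± 35.4 TPM, Uqcrb at 1339 ± 56.0 and Uqcrq at 1325 ± 54.4, which encode small subunits. Uqcrc1, a core protein, was lowest at 166 ± 1.10. In complex IV the fold was 2.47 ± 0.0645 as deposited and 7.12 ± 0.115 with copies. These SDs leave out the uncertainty in assigning reads. As deposited the median of the 3 was mt-Co2, with TPM intervals of 4172 to 9483 and 4327 to 10221. By posterior mean TPM the median was higher, with mt-Co1 at 6988 in replicate 1 and mt-Co2 at 6366 in replicate 2. Only 2 of the 3 core mRNAs were above the highest nuclear subunit Cox8a, at 4511 ± 17.1, by deposited TPM, and all 3 were with copies. The nuclear subunits Ndufa4 and Cox6c followed at 3727 ± 56.6 and 2809 ± 108, and Cox7b was lowest at 809 ± 1.95. In complex V the fold was highest, 12.0 ± 0.438 as deposited and 17.1 ± 0.419 with copies, over 17 nuclear subunits led by Usmg5 at 2370 ± 22.5, Atp5h at 2030 ± 68.6 and Atp5j at 1897 ± 3.22. This fold rests on only 2 genes that share an mRNA. They are mt-Atp8, with an effective length of 105, and mt-Atp6, whose posterior standard deviation was 29.5% and 23.3% of its count. Atp5g2, a gene of the rotor ring, was lowest at 150 ± 9.34.

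**Figure D4:**
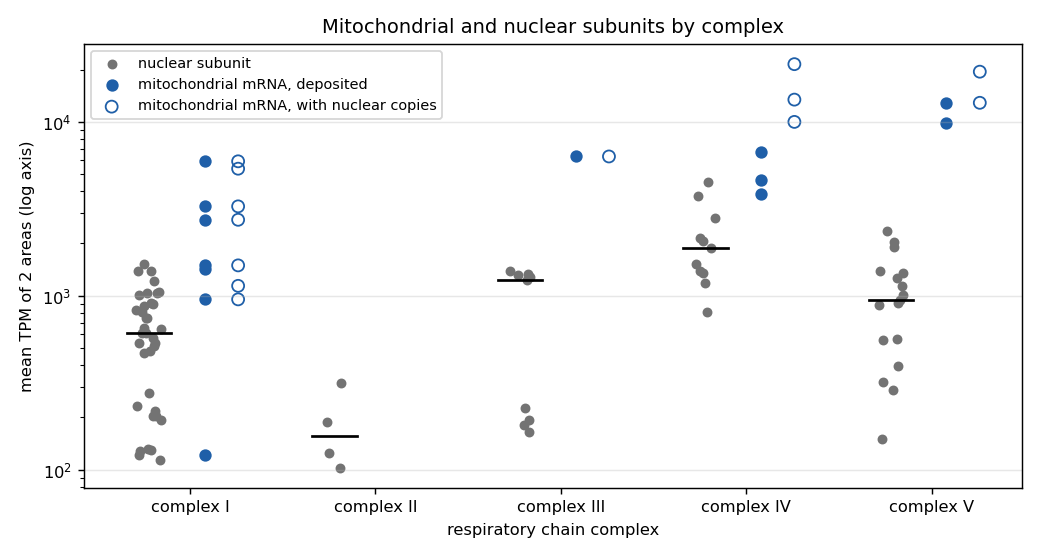
Mean TPM of the 2 areas on a log axis (y) by respiratory complex (x); grey points are nuclear subunits with their median as a black line, filled blue points mitochondrial mRNAs as deposited and open blue points with nuclear copies added. The mitochondrial mRNAs of complexes III, IV and V lie above the nuclear medians, and in complex I they span both sides of the nuclear median of 612 TPM as deposited, through mt-Nd4l.

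The lists of nuclear genes that copy, process and read the mitochondrial genome had medians below every mitochondrial mRNA and rRNA, although Slirp and Ssbp1 lay above the deposited mean of mt-Nd4l, 122 TPM. Of 20 genes of mitochondrial DNA transcription and replication, 19 were detected in both libraries, with a median of 12.8 TPM. The single-stranded DNA binding protein gene Ssbp1 led at 126 ± 12.6 TPM, followed by the termination factor family gene Mterf3 at 95.6 ± 16.6 and Tfam, which packages and activates mitochondrial DNA, at 38.0 ± 0.191. The helicase gene Twnk was lowest of those detected at 1.56 ± 0.290. Called were 2 genes lower in replicate 2 and 7 lower in replicate 1, where the shares over all detected genes were 18.2% and 15.5%. Among the 7 was the topoisomerase gene Top1mt, at 0.94 and 1.46 TPM and detected in replicate 2 alone.

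All 24 genes of mitochondrial RNA processing and decay were detected, with medians of 14.2 and 15.5 TPM. Slirp, whose protein binds mitochondrial mRNAs together with that of Lrpprc, led at 371 ± 35.1 TPM, ahead of the oligoribonuclease gene Rexo2 at 55.2 ± 0.587 and the tRNA processing subunit Hsd17b10 at 42.6 and 35.3. The nuclease subunit that cuts tRNA 5′ ends, 1110008L16Rik, was lowest at 2.13 ± 0.863. Called were 5 of 24 genes lower in replicate 2 and 2 lower in replicate 1, beside shares of 18.2% and 15.5% over all detected genes, and none of the list was past 2-fold, beside 4.29%.

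For the tRNAs, which could not be measured, only their enzymes could be described. The 13 tRNA modification genes had a median of 8.54 TPM, led by Trnt1, which adds the CCA end, at 57.6 ± 2.46, the methyltransferase gene Trmt61b at 27.0 ± 2.86 and the amidotransferase subunit Gatc at 26.5 ± 5.56. Gtpbp3 was lowest at 1.93 ± 0.0778. Of 19 aminoacyl-tRNA synthetases, which load tRNAs with amino acids, 18 were detected in both libraries, with a median of 7.12 TPM. The leucine enzyme gene Lars2 led at 71.3 ± 4.86, followed by Rars2 at 44.5 ± 1.73 and the dual-site gene Gars at 35.3 ± 0.608, and Vars2 was lowest at 1.74 ± 0.615. In the tRNA modification list 3 of 13 genes were called lower in replicate 2 and 1 lower in replicate 1, and in the synthetase list 4 of 19 were called on each side, beside the same shares of 18.2% and 15.5% over all detected genes. Regulators of mitochondrial genes had a median of 8.50 TPM, with Gabpb1 at 20.1 ± 0.424, Yy1 at 14.4 ± 0.219 and the coactivator gene Ppargc1b at 10.6 ± 0.0778, and Esrra was lowest of the 9 of 10 detected at 2.71 ± 1.37. There 2 of 10 genes were called lower in replicate 2, beside 18.2% of all detected genes. The 1 gene called lower in replicate 1, beside 15.5%, was Esrrb, which was detected in neither library, at 0.10 and 0.40 TPM.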

How the data were processed

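The labels give 2 RNA-seq libraries of 1 group. Per the deposited notes, reads were placed on mm10 with GENCODE M4 as annotation; no aligner, counting program, filter or strand setting is named in the sources used here. Expected counts as deposited divide reads that match several genes by estimate, so they need not be whole. TPM and FPKM were computed by the authors from effective lengths and the library total, per the file headers. Score columns, also deposited, carry lengths, the posterior standard deviation of each count, and the limits of a TPM interval of unstated level. For mt-Co1, mt-Nd1 and mt-Atp8, among others, that interval held the posterior mean TPM and lay below the TPM in both libraries. Gene rows summed to 19962271 and 19261911 counts. Spike-ins and rows with numeric IDs, 2.78% and 3.40% of all counts, were left out.

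IDs without version were matched to GENCODE M21 (GRCm38, which is mm10), where 42462 of 43346 were found. Copies were searched with blastn 2.17.0 among M21 transcripts, so stretches without an annotated transcript were not searched. A summed level divides the counts of a gene and its copies by the effective length of the gene. Differences between areas are log2 ratios of TPM + 1, called beyond 0.32, with 2-fold as a second size; with 1 library per area no test was made. The code behind the call was tested on simulated data, which gives no error rate for these libraries. Alternatives covered denominators, units, count columns, pseudocounts, TMM scaling (edgeR 4.0.16, rounded counts), the match rule, and leaving out each replicate. Named were all mRNAs and rRNAs and the 4 copies with the most counts. Of each nuclear list other than the marker lists, the 3 highest, the lowest detected and any gene past 2-fold with a mean TPM of 5 or more were named. Of the marker lists only some genes were named. Other copies, Penk, Malat1, Rn7sk, Lrpprc, Top1mt, Esrrb, Acta2 and Tagln were named after values were seen. The members and lists were chosen with earlier results of these data known.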

Additional observations from a re-analysis of the deposited data

How the results depend on the processing

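The chromosome M share of gene counts, 5.81% as a mean of both areas, was 8.44% as a share of TPM and 8.28% with nuclear copies added. The summed TPM of the mRNAs, 60288, was 64132 from rescaled FPKM, 65778 from the posterior mean and 104470 with copies. The rRNA share of chromosome M counts, 35.2%, was 23.7% by TPM and 24.8% with copies, and the minus-strand share, 0.938%, was 1.89% and 0.656%. The fold of mitochondrial over nuclear subunits, 4.49, was 6.92 with copies and was not computed from the posterior mean. The counts of nuclear copies, 42.9% of those on chromosome M, were 33.3% by posterior mean counts. Beyond a log2 ratio of 0.32 lay 3 of the 15 mRNAs and rRNAs, beside 4.5% of abundant genes and 33.7% of detected genes. With copies added it was 2, without mt-Nd4l. Past 2-fold lay 0, beside 0.381% and 4.29%. Adding copies to the mRNA sum, the rRNA and minus-strand shares, the fold and this count was chosen after seeing the data. Leaving out 1 replicate gave ranges of 5.22 to 6.40% for the share, 59111 to 61465 for the TPM sum, 30.3 to 40.2% for the rRNAs, 0.887 to 0.988% for the minus strand, 4.27 to 4.72 for the fold and 39.3 to 46.5% for the copies. All 15 were detected without either replicate. The median mRNA ratio stayed between -0.09 and -0.08 under the alternatives run. No paired analysis was possible because the labels give 1 group. The posterior standard deviation was above 10% of the count in both libraries for mt-Co2, mt-Co3, mt-Atp6 and mt-Nd4l.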

Other observations

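By mean level, 5 nuclear protein-coding genes stood above the median mitochondrial mRNA by deposited TPM. The nuclear protein-coding genes nearest to that median on the log2(TPM + 1) scale were Ndufa4 at 3727 ± 56.6 TPM (SD, n = 2), Snap25, a synaptic vesicle fusion gene, at 4264 ± 368, the isomerase gene Ppia at 4327 ± 261, Cox8a at 4511 ± 17.1 and Cox6c at 2809 ± 108. This is likeness of a level over 2 libraries. The median mRNA was mt-Co3, at a mean of 3856 TPM as deposited, and with copies added the median was 5936. The count of 5 and the nearest genes therefore hold for the deposited TPM alone.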
